A study of Homo sapiens with 3 samples.

Results

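The genes described here are 44 protein-coding genes whose products recognise, license and fire DNA replication origins and copy DNA at the fork, chosen by name for their function, out of 19881 protein-coding genes with a canonical transcription start site (TSS) that were used for comparison. All 44 symbols were matched in the GENCODE 44 annotation on hg19. The measurement was ETS1 binding by ChIP-Seq in SCC25, an established line of tongue squamous carcinoma cells that the study used as a mesenchymal model. The series held 3 ChIP samples with no treatment or genetic change given in the labels, 2 precipitated with the antibody C20 and 1 with the antibody 501A. What was deposited is a single consensus list of 26970 peaks made by IDR analysis, a filter for peaks that rank alike between replicates, so each gene has 1 pooled reading and no value per sample. The list gives positions and widths without score, summit or depth, hence no replicate spread, no test and no comparison between the antibodies could be had, and the identity of the cells could not be checked from it.

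Origins are licensed in G1, when the origin recognition complex (ORC), CDC6 and CDT1 load the MCM helicase onto DNA as an inactive double ring. In S phase the kinase CDC7, MCM10, CDC45 and the GINS complex turn this ring into the active helicase, and polymerase alpha-primase, polymerases delta and epsilon, the PCNA clamp with its RFC loader, the single-strand binding protein RPA, FEN1 and LIG1 build the new strands. Many of these genes are textbook targets of E2F factors, which drive genes needed for S phase. ETS1 is a transcription factor whose family recognises a GGAA core, and CCGGAA is the form of this core common at CpG-rich promoters.

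To show what the peaks lay on, the bases just upstream of the TSS are printed for 8 genes, 1 for each of 8 roles. They were read from the GRCh37 reference (the hg19 build) on the strand of the gene, and some runs were cut short at an exon. The runs of ORC2, MCM5, POLA1 and POLE hold the outermost annotated start of their own gene, so they include exon bases of other transcripts. The run of GINS2 lies wholly inside its annotated gene. Capitals mark CCGGAA, the ETS core, and the E2F spellings TTTCCCGC, TTTGGCGC, TTTCGCGC and TTTGCCGC, each on either strand, so that TTCCGG and GCGGGAAA are also matches. For 7 of the genes the run holds an ETS core, and CDT1 is shown for its E2F spelling since no licensing gene held CCGGAA in its promoter window. The choice of 1 gene for each role, and of CDT1, was made after the matches were seen. Each of the 8 runs lay wholly inside the consensus peak over the TSS of its gene.
ORC2 (chr2:201828384-201828633, minus strand): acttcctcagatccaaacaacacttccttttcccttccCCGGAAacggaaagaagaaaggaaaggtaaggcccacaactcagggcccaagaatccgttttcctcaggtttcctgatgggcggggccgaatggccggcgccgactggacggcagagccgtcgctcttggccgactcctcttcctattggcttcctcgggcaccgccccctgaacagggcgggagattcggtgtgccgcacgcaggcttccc
CDT1 (chr16:88869947-88870196, plus strand): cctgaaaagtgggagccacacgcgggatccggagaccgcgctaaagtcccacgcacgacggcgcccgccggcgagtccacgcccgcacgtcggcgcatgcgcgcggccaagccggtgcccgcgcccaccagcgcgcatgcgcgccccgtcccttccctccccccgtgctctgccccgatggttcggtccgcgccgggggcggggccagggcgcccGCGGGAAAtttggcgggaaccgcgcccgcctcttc
MCM5 (chr22:35795883-35796129, plus strand): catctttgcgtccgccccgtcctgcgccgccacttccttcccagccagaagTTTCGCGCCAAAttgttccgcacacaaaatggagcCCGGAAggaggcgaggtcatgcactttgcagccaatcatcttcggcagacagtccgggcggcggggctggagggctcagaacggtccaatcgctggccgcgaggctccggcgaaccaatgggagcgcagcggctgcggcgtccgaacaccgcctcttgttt
MCM8 (chr20:5931205-5931297, plus strand): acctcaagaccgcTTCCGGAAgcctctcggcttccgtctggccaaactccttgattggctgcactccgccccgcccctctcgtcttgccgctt
GINS2 (chr16:85722561-85722810, minus strand): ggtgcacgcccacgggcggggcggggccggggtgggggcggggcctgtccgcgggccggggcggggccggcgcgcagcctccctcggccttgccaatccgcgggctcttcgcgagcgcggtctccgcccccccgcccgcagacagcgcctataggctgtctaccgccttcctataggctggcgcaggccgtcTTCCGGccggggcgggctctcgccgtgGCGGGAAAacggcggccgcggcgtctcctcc
POLA1 (chrX:24711785-24712034, plus strand): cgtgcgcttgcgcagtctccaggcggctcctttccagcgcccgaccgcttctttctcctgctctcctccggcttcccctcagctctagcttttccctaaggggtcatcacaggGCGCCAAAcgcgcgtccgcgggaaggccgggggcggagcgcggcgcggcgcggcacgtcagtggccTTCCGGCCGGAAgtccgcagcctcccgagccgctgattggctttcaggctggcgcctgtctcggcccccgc
POLE (chr12:133263929-133264172, minus strand): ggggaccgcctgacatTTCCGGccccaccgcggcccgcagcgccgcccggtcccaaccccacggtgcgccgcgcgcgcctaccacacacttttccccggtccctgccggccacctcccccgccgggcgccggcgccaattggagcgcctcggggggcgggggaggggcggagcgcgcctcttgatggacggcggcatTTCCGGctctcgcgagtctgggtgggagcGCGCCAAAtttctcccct
RFC2 (chr7:73668789-73668979, minus strand): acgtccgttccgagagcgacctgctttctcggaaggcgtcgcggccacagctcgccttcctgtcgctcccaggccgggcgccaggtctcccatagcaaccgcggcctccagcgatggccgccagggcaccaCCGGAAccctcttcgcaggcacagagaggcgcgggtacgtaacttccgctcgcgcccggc

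ETS1 peaks lay at the promoters of nearly all replication genes. A peak midpoint fell in the basal domain, from 5 kb upstream to 1 kb downstream of the canonical TSS, at 42 of the 44 genes (95.5%, 95% Wilson interval 84.9 to 98.7), against 11114 of all 19881 protein-coding genes (55.9%). The intervals given here cover counting error only. The same 42 genes (95.5%) had a peak that covered the TSS itself, against 52.2% of all genes. The genes without a basal peak were MCM9 and RPA3. By role, a basal peak was present at 6 of 6 ORC genes, 3 of 3 licensing genes, 6 of 6 genes of the MCM2 to MCM7 ring, 7 of 7 helicase activation genes, 4 of 4 genes of polymerase alpha and primase, 5 of 5 of polymerases delta and epsilon, 6 of 6 clamp and clamp loader genes, 2 of 2 for flap removal and ligation, 1 of 2 for MCM8 and MCM9 and 2 of 3 RPA genes.

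Of the 11114 genes with a basal peak, 9559 had a CpG-rich promoter, and nearly all replication genes had a promoter of that kind. A promoter was called CpG-rich where 500 bp around the TSS had at least 55% GC and a CpG observed over expected ratio of at least 0.6. This held for 42 replication genes (95.5%) and for 65.5% of all genes. Among all genes with a CpG-rich promoter, 9559 of 13014 (73.5%, 72.7 to 74.2) had a basal peak, and among genes without one 22.6%. A peak covered the TSS itself at 71.2% of all genes with a CpG-rich promoter. The replication genes with a CpG-rich promoter had a basal peak in 41 of 42 cases (97.6%, 87.7 to 99.6). PRIM2 and RPA3 were the replication genes outside this class, with a GC content of 52.2% and 32.2% and a CpG ratio of 0.441 and 0.156. PRIM2 had a peak over its TSS and RPA3 did not.

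A list of 40 other replication genes, among them regulators of firing, fork protection, chromatin assembly and nucleotide supply, gave a close share. The list was chosen with earlier results of these data known. A basal peak was present at 36 of its genes (95% interval of the share 76.9 to 96.0%). The genes without one were CCNA2 (cyclin A2), DNA2 (a nuclease and helicase for flap processing), E2F1 and RECQL4. The nearest peak midpoint lay 22.5 kb from the TSS for CCNA2, 55.5 kb for DNA2 and 12.2 kb for E2F1. RECQL4 had its TSS inside a peak whose midpoint lay 1.56 kb downstream. CHAF1A, a subunit of the chromatin assembly factor, had its basal peak at -2218 bp.

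**Figure D1:**
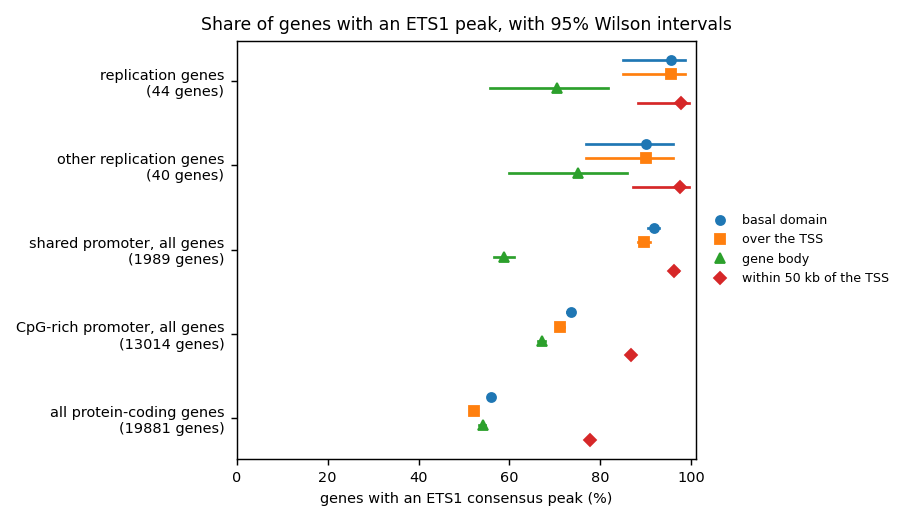
Share of genes (%) with an ETS1 peak by 4 readings of position, for the 44 replication genes, 40 other replication genes, genes with a shared promoter, genes with a CpG-rich promoter and all protein-coding genes. Points are shares and bars are 95% Wilson intervals (counting error only), and the replication genes stood at 95.5% for the basal domain beside 73.5% of genes with a CpG-rich promoter and 55.9% of all genes.

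The peaks sat close to the TSS. In the distances below, negative values lie upstream of the canonical TSS and positive values inside the gene. The distance from the TSS to the midpoint of the nearest basal peak had a median of 126 bp over the 42 genes, from 11 bp at MCM3 to 574 bp at CDT1, against a median of 187 bp over all genes with a basal peak and 176 bp over those with a CpG-rich promoter. It was at most 500 bp at 41 genes and at most 200 bp at 30 genes. The midpoint lay downstream of the TSS at 22 genes (52.4%) and upstream at 20, against 56.4% downstream over all genes. Each of the 42 peaks reached at least 121 bp upstream (GMNN) and at least 274 bp downstream (ORC5) of the TSS. Of the 43 basal peaks, 11 had their midpoint in an exon, 11 in an intron, 8 inside the gene but outside the canonical transcript and 13 outside the gene. The 11 exons were all exon 1 and the 11 introns all intron 1.

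**Figure D2:**
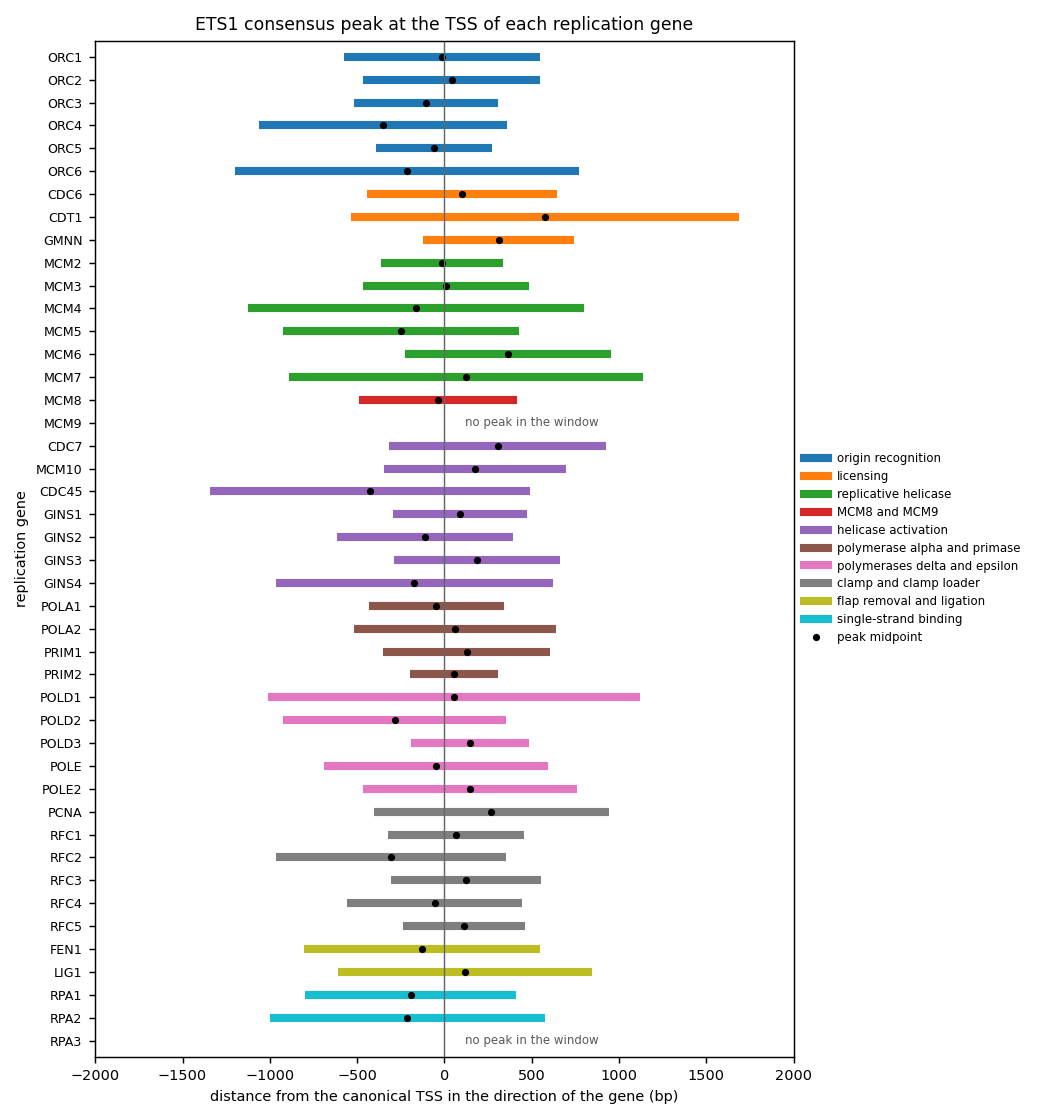
ETS1 consensus peak nearest the TSS at each of the 44 replication genes, drawn as a bar from its start to its end relative to the canonical TSS (bp, direction of the gene), with a dot at the midpoint and a colour for each role. All 42 bars cross the TSS, from 503 bp wide at PRIM2 to 2224 bp at CDT1, and MCM9 and RPA3 have no peak in the window.

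The ORC genes encode the complex that marks origins. ORC1, its largest subunit, had a peak of 1123 bp (chr1:52869547-52870669) with its midpoint at -13 bp. ORC2 had a peak of 1020 bp (chr2:201827833-201828852) at 41 bp, and ORC3 one of 825 bp (chr6:88299336-88300160) at -105 bp. ORC4 had a peak of 1421 bp (chr2:148777947-148779367) at -351 bp. These subunits together with ORC5 form the ring-shaped core of the complex. The peak of ORC5 measured 668 bp (chr7:103848187-103848854) and lay at -59 bp. ORC6, the most divergent subunit, had the widest peak of the group at 1969 bp (chr16:46722371-46724339) and -216 bp. In 5 of the 6 genes the midpoint was upstream of the TSS, and 4 of the 6, ORC1, ORC3, ORC4 and ORC6, share their promoter with a neighbour. The 6 ORC genes had no second peak within 50 kb except ORC1, which had 1 other.

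CDC6 and CDT1 load the helicase, and GMNN (geminin) binds CDT1 and blocks reloading. Their peaks all had the midpoint inside the gene. The peak of CDC6 was 1088 bp wide (chr17:38443686-38444773) with the midpoint at 98 bp, in exon 1. CDT1 had the widest promoter peak of all replication genes, 2224 bp (chr16:88869660-88871883), with the midpoint at 574 bp in intron 1. GMNN had a peak of 866 bp (chr6:24775044-24775909) at 311 bp in intron 1, so that the loader and its inhibitor both had a peak.

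The helicase genes MCM2 to MCM7 each had 1 basal peak. MCM2 had a narrow peak of 703 bp (chr3:127316888-127317590) at -15 bp, and MCM3 one of 950 bp (chr6:52149055-52150004) at 11 bp, the closest midpoint to a TSS among the replication genes. MCM4 had a peak of 1928 bp (chr8:48872374-48874301) at -164 bp and MCM5 one of 1353 bp (chr22:35795207-35796559) at -250 bp. Both of these lay mostly upstream. MCM6 had a peak of 1181 bp (chr2:136633058-136634238) at 365 bp in intron 1. MCM7 had the widest of the 6 at 2033 bp (chr7:99697880-99699912) and 124 bp in exon 1. The widths of the helicase genes ran from 703 to 2033 bp.

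MCM8 and MCM9 form a separate helicase complex known for its part in homologous recombination, and they differed here. MCM8 had a peak of 906 bp (chr20:5930809-5931714) at -37 bp. MCM9 had none in its basal domain. The only peak within 50 kb of its TSS measured 1537 bp (chr6:119214974-119216510) and lay 40.6 kb inside the gene, in intron 8 of the canonical transcript. That peak covered 2 annotated starts of shorter MCM9 transcripts, 40.8 and 40.9 kb from the canonical TSS, and its midpoint was 426 bp from the TSS of ASF1A, a histone chaperone gene. Which of these starts the peak belongs to cannot be told from positions. The canonical promoter of MCM9 was CpG-rich (67.2% GC) and held CCGGAA.

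Of the genes that activate the helicase, CDC7 (the kinase that phosphorylates MCM proteins) had a peak of 1245 bp (chr1:91966090-91967334) at 304 bp in intron 1. MCM10, an activator of the assembled helicase, had one of 1043 bp (chr10:13203213-13204255) at 176 bp, also in intron 1. CDC45, which joins the ring with GINS, had a peak of 1835 bp (chr22:19466098-19467932) at -428 bp, the midpoint farthest upstream among the 42 peaks nearest a TSS. The GINS genes encode the 4 subunits of a small complex that stays at the fork. GINS1 had a peak of 770 bp (chr20:25388013-25388782) at 88 bp and GINS2 one of 1012 bp (chr16:85722165-85723176) at -110 bp. GINS3 had a peak of 953 bp (chr16:58426087-58427039) at 188 bp and GINS4 one of 1589 bp (chr8:41385813-41387401) at -173 bp. All 4 GINS promoters thus had a peak. The midpoint was downstream of the canonical TSS at GINS1 and GINS3 and upstream of it at GINS2 and GINS4. That of GINS2 still lay inside the annotated gene.

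Polymerase alpha and primase start each new strand. POLA1, the catalytic subunit, had a peak of 774 bp (chrX:24711603-24712376) at -46 bp. POLA2, its accessory subunit, had one of 1159 bp (chr11:65028915-65030073) at 61 bp. PRIM1, which makes the RNA primer, had a peak of 957 bp (chr12:57145501-57146457) at 128 bp in intron 1. PRIM2, the regulatory primase subunit, was the only replication gene with 2 basal peaks. Its nearer peak was the narrowest of the 42, 503 bp (chr6:57182231-57182733) at 54 bp, and the other measured 493 bp (chr6:57181467-57181959) at -715 bp.

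Polymerase delta copies mainly the lagging strand and polymerase epsilon the leading strand. POLD1, the catalytic subunit of delta, had a wide peak of 2135 bp (chr19:50886592-50888726) at 55 bp. POLD2 had a peak of 1278 bp (chr7:44162794-44164071) at -285 bp, and POLD3 a narrow one of 678 bp (chr11:74303435-74304112) at 146 bp. The 3 delta genes thus differed in width although each peak covered the TSS. POLE, the catalytic subunit of epsilon, had a peak of 1285 bp (chr12:133263334-133264618) at -48 bp, and POLE2, an accessory subunit, one of 1225 bp (chr14:50154172-50155396) at 148 bp. A further peak of POLE2 lay just outside the basal domain at -5056 bp, and its midpoint was 150 bp from the TSS of a neighbouring gene, KLHDC1.

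PCNA, the sliding clamp, had a peak of 1347 bp (chr20:5099662-5101008) at 269 bp in exon 1. RFC1, the large subunit of the loader that opens the clamp, had a peak of 781 bp (chr4:39367524-39368304) at 68 bp. The small subunits RFC2 to RFC5 followed. RFC2 had the widest loader peak, 1316 bp (chr7:73668378-73669693) at -306 bp, and RFC3 one of 858 bp (chr13:34391982-34392839) at 124 bp. RFC4 had a peak of 1006 bp (chr3:186523824-186524829) at -55 bp and RFC5 one of 699 bp (chr12:118454272-118454970) at 113 bp. The 5 loader peaks were all narrower than 1336 bp, the median over all genes with a basal peak, and that of PCNA was wider.

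FEN1, which cuts the flaps of Okazaki fragments, had a peak of 1351 bp (chr11:61559579-61560929) at -129 bp. LIG1, the ligase that joins the fragments, had one of 1456 bp (chr19:48672754-48674209) at 120 bp in intron 1. Of the RPA genes, RPA1, the large subunit, had a peak of 1212 bp (chr17:1732500-1733711) at -194 bp, and RPA2 one of 1577 bp (chr1:28240512-28242088) at -214 bp. RPA3, the small subunit, had no peak within 50 kb of its canonical TSS. Its nearest peak measured 1233 bp (chr7:7679773-7681005) and lay 77.8 kb inside the gene in exon 5. That peak covered 4 other annotated RPA3 starts and its midpoint was 6 bp from the TSS of UMAD1, so RPA3 and UMAD1 cannot be told apart there. Counted at any annotated TSS, all 44 replication genes had a peak over a start, against 56.6% of all genes.

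The peaks of the replication genes were on the narrow side. The basal peak nearest the TSS had a median width of 1141 bp (quartiles 876 and 1352; mean 1198 ± 428, SD over 42 genes), against a median of 1336 bp (quartiles 991 and 1814) over all 11114 genes with a basal peak and 1366 bp over those with a CpG-rich promoter. Only 13 of the 42 were wider than the median of all genes. Peaks over 2000 bp were found at 3 replication genes (7.14%), CDT1, POLD1 and MCM7, and at 18.7% of all genes with a basal peak. At 15 genes the peak was under 1000 bp. The 36 other replication genes with a basal peak had a median width of 1256 bp.

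**Figure D3:**
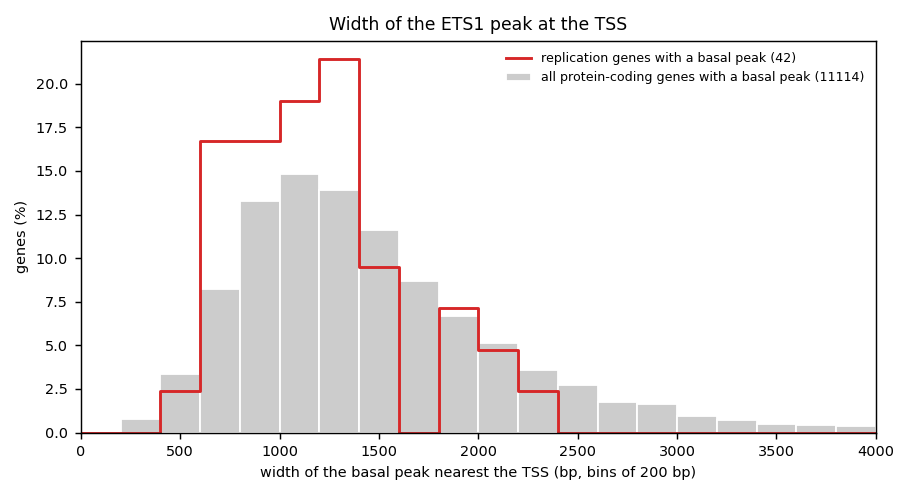
Share of genes (%) by width of the basal peak nearest the TSS, in bins of 200 bp, for all 11114 protein-coding genes with such a peak (grey bars; a tail beyond 4000 bp is not drawn) and for the 42 replication genes (red line). The replication genes lie mostly between 600 and 1400 bp, with a median of 1141 bp beside 1336 bp for all genes.

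Some of these promoters also serve a gene on the other strand. Another coding gene started on the opposite strand within 1 kb at 12 of the 44 replication genes (27.3%), against 1989 of 19881 genes (10.0%). All 12 pairs were head to head, while the count over all genes was not limited to such pairs. The pairs were ORC1 with PRPF38A, ORC3 with RARS2, ORC4 with MBD5, ORC6 with VPS35, MCM4 with PRKDC, MCM7 with AP4M1, MCM8 with TRMT6, CDC45 with UFD1, POLE with PXMP2, FEN1 with TMEM258, LIG1 with ZSWIM9 and RPA1 with SMYD4. The gap between the starts ran from 103 bp (RPA1) to 805 bp (MCM4). A single peak covered both starts in 12 of 12 pairs, and its midpoint lay between them in 9, the exceptions being MCM7, LIG1 and RPA1. Binding to the replication gene and to its partner cannot be told apart at these promoters.

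Over all genes with a shared promoter, 1827 of 1989 (91.9%, 90.6 to 93.0) had a basal peak. The share among replication genes without a shared promoter was 30 of 32 (93.8%, 79.9 to 98.3), and among those with a CpG-rich promoter that was not shared it was 29 of 30 (96.7%, 83.3 to 99.4). The matching share of all genes with a CpG-rich promoter that was not shared was 70.4% (69.5 to 71.2). Without the pairs, the share of replication genes was about the same as with them. At shared promoters the median signed distance was -117 bp and the median width 1386 bp in the replication genes, close to -118 bp and 1408 bp over all genes of that class. The 30 others had a median signed distance of 64.5 bp and a median width of 1016 bp.

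Inside the genes beyond the promoter, binding was rare. A peak midpoint fell in the gene body of 31 of the 44 genes (70.5%, 55.8 to 81.8), against 54.1% of all genes and 67.1% of those with a CpG-rich promoter. Nearly all of these were the promoter peaks themselves. More than 1 kb downstream of the TSS, 3 replication genes had a peak in the body (6.82%), MCM9, LIG1 and RPA3, against 22.5% of all genes. The mean number of such peaks per gene was 0.0682, and it was also low, 0.100, in the 40 other replication genes. It was 0.464 over all genes and 0.537 over those with a CpG-rich promoter. GINS3 had a body peak of 336 bp (chr16:58370572-58370907) at -55636 bp, upstream of the canonical TSS but inside the annotated gene. The LIG1 peak measured 2049 bp and lay 47.6 kb inside the gene, in intron 23. Median gene length was 35.3 kb in the replication genes, 27.6 kb over all genes and 35.5 kb over those with a CpG-rich promoter. Mean lengths were 58.3, 69.1 and 78.1 kb in the same order. Whether gene length bears on the number of body peaks was not tested.

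Within 50 kb of the TSS, 43 of the 44 genes (97.7%) had a peak, against 77.8% of all genes and 86.7% of those with a CpG-rich promoter. The median number of peaks in this window was 2, the same as over all genes. For 16 genes the peaks within 50 kb were in the basal domain alone, namely ORC2, ORC3, ORC4, ORC5, ORC6, GMNN, MCM3, MCM6, CDC7, MCM10, POLA1, PRIM2, POLD3, RFC1, RFC3 and RPA1. Of the 111 peaks within 50 kb, 68 lay outside the basal domains, at 27 genes. Of these 68, 27 (39.7%) were within 500 bp of the TSS of another coding gene. The replication gene was itself the nearest coding TSS for 5, which were 3 downstream of MCM5 at 31.0, 43.5 and 46.4 kb, 1 at GINS3 at 29.4 kb and 1 upstream of RFC2 at -15605 bp.

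For the genes with the most peaks nearby, the nearest coding TSS to many of these peaks was that of another gene. These other genes, like ASF1A, UMAD1 and KLHDC1 above, were named after their values were seen. CDT1 had 9 peaks within 50 kb, of which 6 had PIEZO1, a mechanosensitive channel gene, as the nearest coding TSS. MCM5 had 8, of which 4 had HMOX1, encoding haem oxygenase, as the nearest and the other 4 MCM5 itself. CDC6 had 5, and the 4 outside its basal domain were nearest to RARA, a retinoic acid receptor gene. MCM7 had 6, and the other 5 each lay within 500 bp of the TSS of a neighbour, ZNF3, COPS6, CNPY4, MBLAC1 or LAMTOR4. RFC2 had 6 and POLD2 had 5. Which gene these peaks act on cannot be read from their position.

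**Figure D4:**
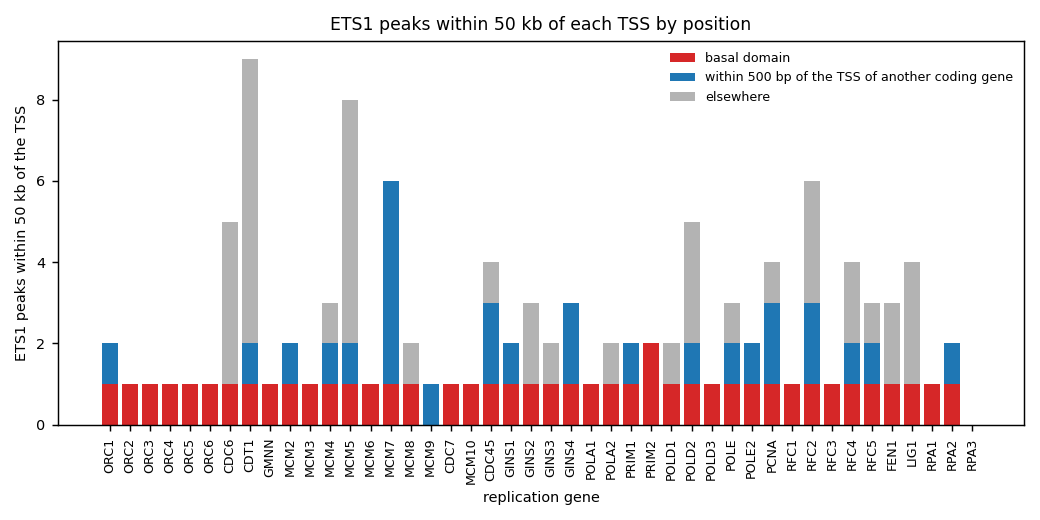
Number of ETS1 peaks within 50 kb of the TSS of each replication gene, split into peaks in the basal domain (red), peaks within 500 bp of the TSS of another coding gene (blue) and the rest (grey). CDT1 (9), MCM5 (8), MCM7 (6) and RFC2 (6) have the most, while 16 genes have their basal peaks only and RPA3 has none.

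The sequence of the promoters, which took no part in choosing the genes, was searched on both strands from 250 bp before the TSS to 50 bp from it. CCGGAA was present at 18 of the 44 genes (40.9%, 27.7 to 55.6), against 22.8% of all genes and 9 of the 40 other replication genes (22.5%, 12.3 to 37.5). It was present at 29.8% of genes with a CpG-rich promoter and 35.2% of those with a CpG-rich promoter and a basal peak. The interval of the replication genes holds the last 2 of these shares. The longer CCGGAAGT was present at 3 genes (6.82%), GINS3, POLA1 and RFC4, against 6.16% of all genes. The bare GGAA, a part of both, was present at 44 of 44 and at 94.7% of all genes, so it separates little. A basal peak was found at 17 of 18 replication genes with CCGGAA in this window and at 25 of 26 without it there. Among all genes with a CpG-rich promoter the shares were 86.8% with and 67.8% without. Genes without it in the window can hold it elsewhere in the peak. Over the whole peak, CCGGAA was present at 29 of the 42 genes (69.0%, 54.0 to 80.9), against 63.4% of all genes with a basal peak. A match is a run of letters and not a measured site.

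CCGGAA was spread unevenly over the roles. It was present in 5 of the 6 ORC promoters, ORC6 being the exception, in 3 of 4 of polymerase alpha and primase (POLA1, POLA2 and PRIM2) and in both MCM8 and MCM9. It was present in 2 of the 6 helicase genes (MCM5 and MCM6), 2 of 7 activation genes (GINS2 and GINS3), 2 of 6 clamp and loader genes (RFC2 and RFC4), 1 of 5 of polymerases delta and epsilon (POLE), 1 of 3 RPA genes (RPA1), none of the 3 licensing genes and neither FEN1 nor LIG1. The groups are too small for their order to be read. In the printed run of MCM8, the marked 8 letters hold CCGGAA on both strands, and in POLA1 a pair of cores lie next to each other on opposite strands, starting at -71 and -65 bp.

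Of the letters searched, the E2F spellings differed most in their share between the replication genes and all genes. At least 1 of the 4 was present at 21 of the 44 genes (47.7%, 33.8 to 62.1), against 4.37% of all genes, 5.62% of those with a CpG-rich promoter and 10 of the 40 other replication genes (interval 14.2 to 40.2%). TTTCCCGC was present at 12 genes, TTTGGCGC at 8, TTTCGCGC at 6 and TTTGCCGC at 0, beside 2.24%, 0.860%, 0.719% and 0.689% of all genes. The reverse complement of TTTCCCGC holds GGAA, so this spelling overlaps the bare ETS core but not CCGGAA. Spellings on opposite strands can overlap each other, as in the 12 marked letters of MCM5.

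All 6 helicase genes held an E2F spelling. In MCM2 matches started at 2 and 6 bp, in MCM3 at -174 and -4 bp, and in MCM4 at -230 bp. MCM5 had 3 matches, at -199, -195 and -4 bp, and MCM6 had 4, at -152, -148, -90 and -86 bp. MCM7 had them at -187 and -9 bp. Among the other roles the spelling was present at 4 of 5 genes of polymerases delta and epsilon (POLD2 being the exception), 3 of 7 activation genes (GINS1, GINS2 and GINS3), 2 of 4 of polymerase alpha and primase (POLA1 and POLA2) and 2 of 3 licensing genes (CDC6 and CDT1). It was present at 1 of 6 ORC genes (ORC3), 1 of 6 clamp and loader genes (RFC3), LIG1 and MCM8, and at none of the 3 RPA genes.

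The matches also differed in place. Matches that overlap on opposite strands were counted separately, and no positions over all genes are given beside these. The 29 E2F matches had a median first base at -31 bp, and 18 of them, at 17 genes, started within 60 bp of the TSS. The 27 CCGGAA matches had a median at -99 bp, with 8 within 60 bp. CCAAT, the letters recognised by NF-Y, a factor of many cell cycle promoters, was present at 26 genes (59.1%, 44.4 to 72.3), against 36.0% of all genes, 34.3% of those with a CpG-rich promoter and 22 of the 40 other replication genes. Its 45 matches had a median first base at -79 bp. TTTGAA, the cell cycle homology region of genes expressed late in the cycle, was present at 1 gene, POLD1 (2.27%, 0.402 to 11.8), against 11.4% of all genes and 6.89% of those with a CpG-rich promoter, both inside the interval. In 200 bp at the peak it was present at 7.14% of the 42 genes and at 4.01% of all genes with a basal peak, and over the whole peak at 35.7% and 35.6%.

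**Figure D5:**
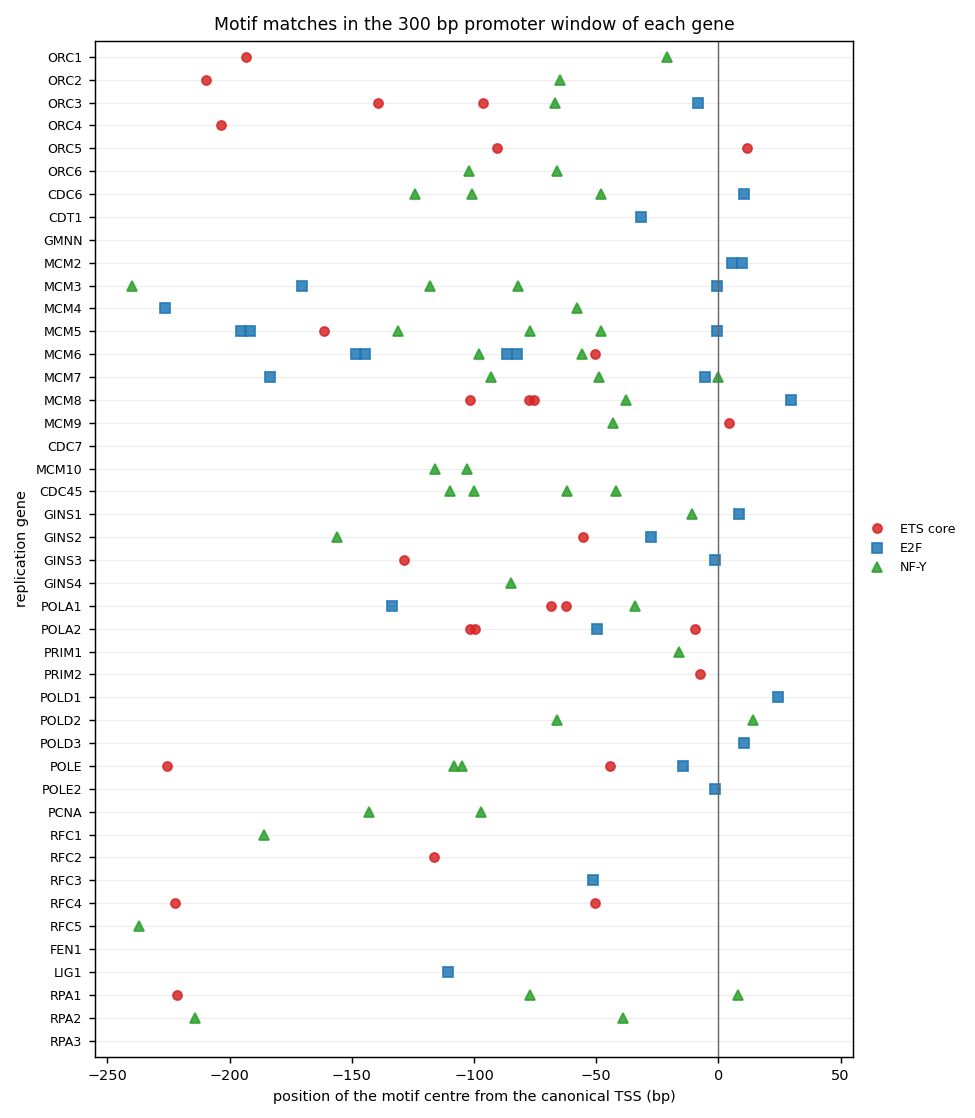
Position of the centre of each match from the canonical TSS (bp) in the 300 bp promoter window of the 44 replication genes, for the ETS core (27 matches, circles), E2F spellings (29, squares) and the NF-Y letters (45, triangles). Of the squares, 18 start within 60 bp of the TSS, and of the circles 8.

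Both CCGGAA and an E2F spelling were present at 9 replication genes (20.5%), ORC3, MCM5, MCM6, MCM8, GINS2, GINS3, POLA1, POLA2 and POLE. The share was 1.34% of all genes, 1.83% of those with a CpG-rich promoter and 1 of the 40 other replication genes (2.50%). Taken singly, CCGGAA was present at 40.9% of the replication genes and an E2F spelling at 47.7%. Whether the 2 go together beyond these single shares was not tested. CCGGAA without E2F was present at 9, E2F without CCGGAA at 12, and neither at 14. Any of CCGGAA, E2F or CCAAT was present at 40 (90.9%), against 52.6% of all genes and 56.5% of those with a CpG-rich promoter. Among the 40 other replication genes the count was 32 (80.0%). Of the 44 replication genes, the 4 with none of these in the promoter window were GMNN, CDC7, FEN1 and RPA3. Of these, 3 had a basal peak, GMNN, CDC7 and FEN1. Their peaks did hold such letters in 600 bp around the midpoint. These were CCGGAA at FEN1, an E2F spelling and CCAAT at GMNN, and an E2F spelling at CDC7.

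In 600 bp around the midpoint of the basal peak nearest the TSS, CCGGAA was present at 23 of the 42 genes (54.8%, 39.9 to 68.8), against 43.9% of all genes with a basal peak, and an E2F spelling at 22 (52.4%, 37.7 to 66.6), against 9.16%. In 200 bp the counts were 13 (31.0%, against 2221 of 11114 genes) for CCGGAA and 14 (33.3%, against 3.33%) for E2F. The share with CCGGAA at the peaks of the replication genes was thus within its counting error of that of other promoter peaks in both windows. For the E2F spelling the interval was 21.0 to 48.4 in the narrower window. In neither window did the interval hold the share of all genes with a basal peak. Among the 36 other replication genes with a basal peak, an E2F spelling was present at 36.1% (22.5 to 52.4) in 600 bp. In 200 bp it was present at 16.7% (7.87 to 31.9) of them. Both intervals overlapped those of the replication genes.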

How the data were processed

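ETS1 ChIP-Seq was performed by the authors in SCC25 cells. They mapped reads that had a single locus to hg19 with Bowtie (version 1.1.1 in the submitters' processing notes), merged files with SAMtools (version 1.3), used MACS2 with merged input as control for peak calling, and took the consensus of the 3 samples by IDR. The deposited values are the positions of consensus peaks in bp (chromosome, start and end), with no signal, count or score, so depth behind a peak is unknown here and precision is limited to counting error.

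Peaks were placed by their midpoint, 1-based, on the canonical TSS of GENCODE release 44 lifted to GRCh37, with 1 TSS for each of 19881 protein-coding genes of 20162 annotated. Of the 26970 peaks, 9 lay outside chromosomes 1 to 22, X and Y, and 0 of the rest ran past a chromosome end of the reference. Genes were counted by basal domain, TSS, gene body and 50 kb window. Letters were counted in the reference by exact match on both strands. Shares carry 95% Wilson intervals, and no test was made, because the samples are pooled. All 44 genes are named; other genes are named where they share a promoter, are among 40 further replication genes, or where the text says so. Printed sequences were to come from at most 2 genes a role with the midpoint nearest the TSS and a CCGGAA match. This was narrowed to runs of at least 90 bp, some of them cut short at an exon. The genes, lists and letters were chosen with earlier results of these data known. The placement was tested on simulated peaks. Alternatives were the TSS set, overlap in place of midpoint, window sizes and the earlier lines of the list alone. Scripts ran in Python 3.11.15 with pysam 0.24.0, pandas 2.3.3, matplotlib 3.10.9 and, for intervals, scipy 1.17.1.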

Additional observations from a re-analysis of the deposited data

How the results depend on the processing

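No paired analysis was possible because the deposited list pools the 3 samples, and for the same reason no replicate could be left out. Of 27 alternatives to 8 results, 20 kept the value within 1.5 times and 7 moved it. Taking the first 13485 lines of the list, whose order is not explained in the sources used here, lowered the count of all protein-coding genes with a basal peak from 11114 to 7224, of those with a peak over the TSS from 10379 to 6782, and of replication genes with a peak in the body from 31 to 19. With these lines 28 of the 44 replication genes (63.6%) had a basal peak, against 36.3% of all genes and 48.3% of those with a CpG-rich promoter. Asking for a TSS within 200 bp of the midpoint gave 5884 genes in all and 30 replication genes. Counting the body from 1 kb past the TSS left 3 replication genes, since promoter peaks are then left out. The number of replication genes with CCGGAA at the peak was 23 in 600 bp, 13 in 200 bp and 42 for the bare GGAA. With any annotated TSS the basal count rose from 42 to 44, because MCM9 and RPA3 have internal starts under peaks. The list holds no depth or signal, so an absent peak, as at MCM9 and RPA3, means only that none reached the IDR threshold.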
